A study of Rattus norvegicus and Heterocephalus glaber with 6 samples.

Results

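The nuclear genes for the subunits of the mitochondrial respiratory chain and of ATP synthase were examined in liver RNA from rats and naked mole rats. All rows of the deposited gene tables were taken whose name begins with Nduf, Uqcr, Atp5 or Cox followed by a digit from 4 to 8, or is Sdha, Sdhb, Sdhc or Sdhd, without regard to case. This gave 86 of 22549 rows in each rat table and 2 of 734 rows in each naked mole rat table, COX7A2 and COX8A, both of which are also among the 86 rat genes. Polyadenylated RNA of liver was sequenced after 8 hours in 8% oxygen, with 3 libraries of rat and 3 of naked mole rat, a burrowing rodent that tolerates low oxygen. Both groups received the same exposure, the labels name no strain, sex, age or genotype, and normoxic livers were not analysed here, so no value below is an effect of oxygen. The libraries are separate samples by their labels, but no label ties each to an animal of its own, so p-values measure only the spread between these samples, which may be technical.

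Oxidative phosphorylation passes electrons from NADH through complex I (NADH dehydrogenase), or from succinate through complex II (succinate dehydrogenase), to ubiquinone, then through complex III (the cytochrome bc1 complex) and cytochrome c to complex IV (cytochrome c oxidase), which reduces oxygen to water. Complexes I, III and IV pump protons, and complex V (ATP synthase) uses the resulting gradient to make ATP. Most subunits are encoded in the nucleus and a few in mitochondrial DNA; hepatocytes are rich in mitochondria, and several subunits of complex IV have isoforms made mainly in heart and skeletal muscle, lung or testis.

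Values are FPKM, fragments per kilobase of transcript per 1000000 mapped fragments, and so are scaled for length. Comparisons between genes are approximate, since most member values lay outside their deposited bounds, as described further on. The tables carry no read counts, which leaves sequencing depth unknown and allows no counting interval. Rat libraries had FPKM totals between 527133 and 557187, naked mole rat libraries between 17543 and 21793. The 86 rat rows held 2.11%, 2.30% and 2.18% of the FPKM total of rat 1, rat 2 and rat 3, and each carried the status OK. Only the total of rat 3 includes Alb (25789 FPKM), which was missing in rat 1 and rat 2. The totals and shares of the 3 libraries are therefore not on the same base. The liver label was met in rat: 9 of 10 hepatocyte markers had a row, with means of 100 FPKM or more (Alb, the highest, had a value in rat 3 alone). No hepatocyte marker of that list had a row in the naked mole rat tables as used here, so their label was not checked.

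By function, 76 of the 86 rat genes encode subunits of the complexes, 36 of complex I, 4 of complex II, 7 of complex III, 15 of complex IV and 14 of complex V. The other 10 match the name pattern without being subunits. Of these, 7 encode assembly or supercomplex factors, Cox6c1 and Ndufa10l1 are gene copies, and Cox4nb is an older name of Emc8, which encodes a component of the ER membrane protein complex. A mean of at least 1 FPKM was reached by 77 of the 86 rows, at least 10 FPKM by 73 and at least 100 FPKM by 40. Over all 22549 rat rows the shares at these levels were 44.3%, 17.3% and 2.94%, against 89.5%, 84.9% and 46.5% of the 86. The median of the 86 means was 85.9 FPKM, against 0.448 over all rat rows, and where the mean was 1 FPKM or more it was 106 FPKM (77 rows) against 6.74 (9995 rows).

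The complexes differed in level. Among genes at 1 FPKM or more, the median was 259 FPKM for complex IV (10 genes), 226 for complex V (14), 125 for complex II (4), 79.0 for complex I (34) and 66.6 for complex III (7). With rows under 1 FPKM included, the median was 148 FPKM for complex IV (15 rows) and 73.8 for complex I (36), and complex V was highest. These levels are descriptions, since members of a complex are not replicates of each other.

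**Figure D1:**
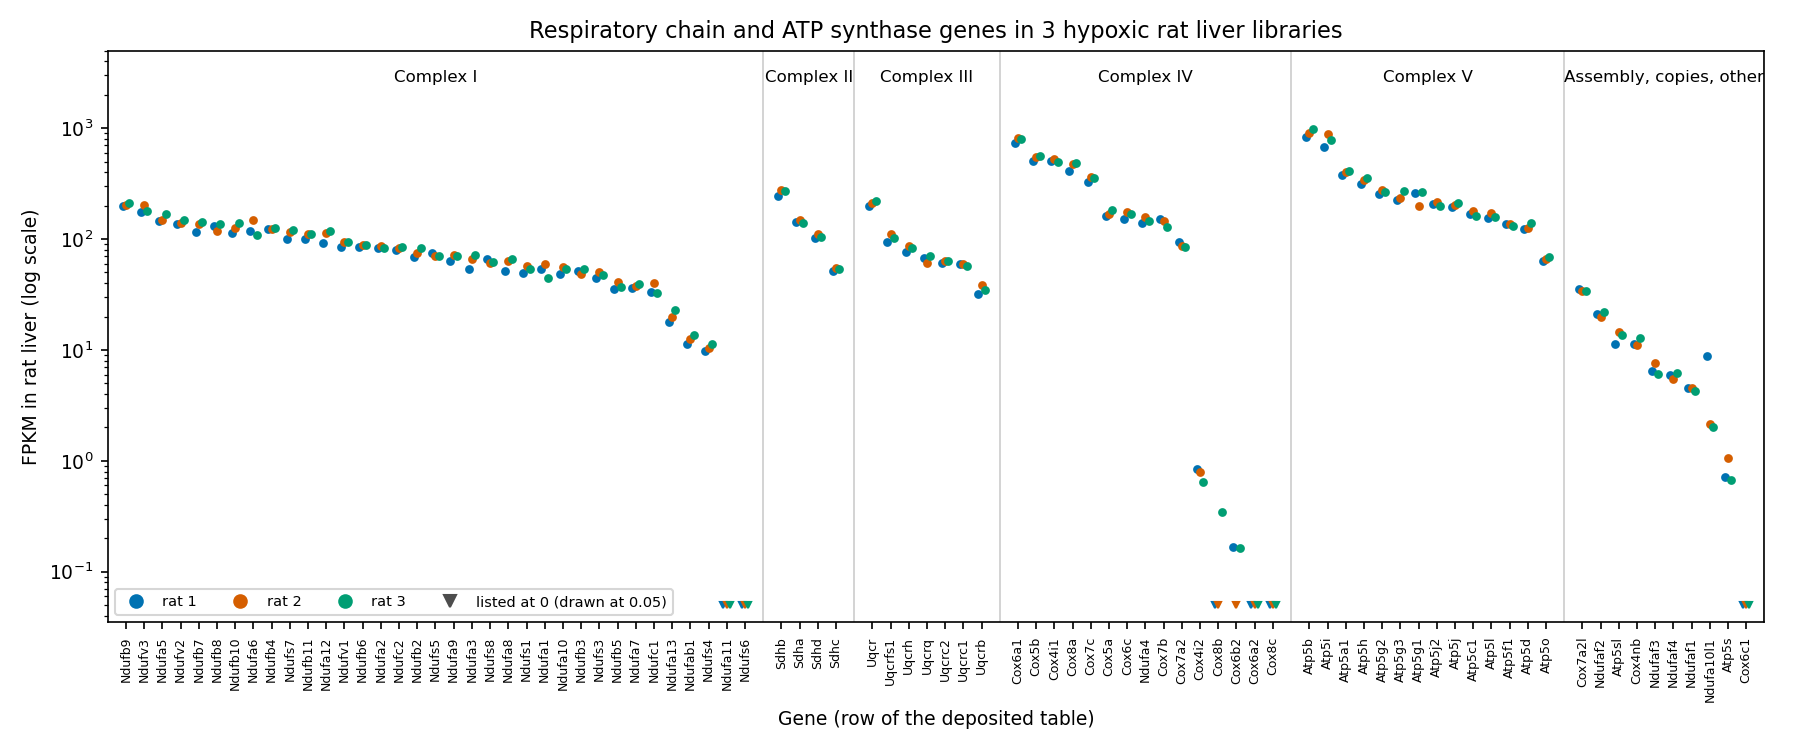
FPKM (log axis) of 85 of the 86 rat rows in each of 3 libraries (rat 1 blue, rat 2 orange, rat 3 green), ordered by mean within each complex; triangles mark values listed at 0. Most subunits lie between 10 and 1000 FPKM with the 3 points close together, while 5 isoform rows of complex IV lie below 1 FPKM.

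Complex I begins with the flavoprotein and iron-sulphur subunits that take electrons from NADH. Its 7 nuclear core subunits had means from 47.3 to 142 FPKM. Ndufv1, which holds the flavin, stood at 84.9, 93.9 and 94.2 FPKM in rat 1, rat 2 and rat 3, and Ndufv2, an iron-sulphur subunit beside it, at 137, 140 and 150. Ndufs1, the large iron-sulphur subunit, was lower at 49.9, 57.3 and 53.6 FPKM, without overlap with either. The core subunits ran from Ndufs3 at 47.3 ± 2.92 FPKM (SD, n = 3) to Ndufv2 at 142 ± 6.58.

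The accessory subunits, which surround this core, spanned a wider range. The highest were Ndufb9 at 205 ± 7.08 FPKM (SD, n = 3), Ndufv3 at 187 ± 14.8 and Ndufa5 at 155 ± 12.2. Ndufs4, Ndufab1 (the mitochondrial acyl carrier protein) and Ndufa13 were the lowest above 0, at 10.5 ± 0.725, 12.4 ± 1.18 and 20.4 ± 2.59 FPKM. Of the 29 accessory rows, 27 were above 0 in each library and Ndufa11 and Ndufs6 were listed at 0 in all 3. The rows of these genes were unusual in the deposited tables. Ndufa11 lay on an unplaced sequence outside the assembled chromosomes, and 0 of 831 such rat rows were above 0 in any library. The Ndufs6 row covered 414 bp on chromosome 2 (26295709 to 26296123) and the Ndufa13 row 435 bp on chromosome 7 (32937676 to 32938111), the shortest spans among the 86 rows. RefSeq (GRCr8) names 1 pseudogene after Ndufs6 and 4 after Ndufa13, and at least 1 after 39 of the 86 genes, so copies can take or split reads. The share of all rat genes with such a pseudogene was not counted, so 39 of 86 is not shown to be unusual. For Ndufa11, Ndufs6 and Ndufa13 a low level and the placement or extent of the row cannot be told apart.

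Complex II, which is also an enzyme of the citric acid cycle, is wholly encoded in the nucleus. Sdhb, the iron-sulphur subunit, stood at 244, 275 and 269 FPKM in rat 1, rat 2 and rat 3. Sdha, the flavoprotein that oxidizes succinate, was at 144, 149 and 139. The membrane anchors Sdhd and Sdhc were at 103, 110 and 105 and at 51.1, 54.8 and 54.2. The 4 genes kept this order in each library without overlap.

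In complex III, Uqcr (now named Uqcr11), a small accessory subunit, was highest at 201, 214 and 222 FPKM. Uqcrfs1, the Rieske iron-sulphur protein that passes electrons to cytochrome c1, followed at 94.2, 111 and 103, and Uqcrh, the hinge protein, came next at 82.3 ± 5.20 (SD, n = 3). The core proteins Uqcrc1 and Uqcrc2 were close to each other, at 59.2, 59.9 and 56.8 and at 61.2, 64.1 and 63.2 FPKM. Uqcrb, which helps to form the ubiquinone site, was lowest at 35.1 ± 3.40. Cyc1 (cytochrome c1), the remaining catalytic subunit encoded in the nucleus, falls outside the name pattern and stood at 113, 116 and 121 FPKM.

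The nuclear subunits of complex IV fell into a high and a low group by isoform. The 10 subunits that are not tissue isoforms had means from 88.6 to 786 FPKM, and 9 of them reached 100 FPKM. Cox6a1, which sits at the dimer interface, was at 739, 824 and 795 FPKM. Cox5b, a zinc-binding subunit, was at 510, 549 and 561, and Cox4i1, the largest nuclear subunit and a site of ATP regulation, at 509, 533 and 496. Cox5b and Cox4i1 overlapped, whereas Cox6a1 was above both in each library. Cox5a was lower at 161, 168 and 183, and Ndufa4, first assigned to complex I and now counted with complex IV, stood at 139, 158 and 147. The small membrane subunits lay on either side of these: Cox8a at 456 ± 42.1 FPKM (SD, n = 3) and Cox7c at 348 ± 17.8 above them, Cox6c at 166 ± 13.0 and Cox7b at 142 ± 12.3 beside them, and Cox7a2 lowest at 88.6 ± 4.93.

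The tissue isoforms had values below 1 FPKM or were listed at 0. Cox4i2, the isoform made mainly in lung and known to respond to oxygen in some cells, stood at 0.845, 0.786 and 0.648 FPKM. Cox4i1 was 602, 678 and 765 times as high in the same libraries, a mean ratio of 682 ± 81.5 (SD, n = 3). Cox6a2, the heart and muscle partner of Cox6a1, was listed at 0 in each of the 3 libraries, in a row of 723 bp, among the 4 rows under 1000 bp. Cox8b, the heart and muscle partner of Cox8a, was listed at 0 in rat 1 and rat 2 and at 0.349 FPKM in rat 3, where Cox8a was 1392 times as high. Of the testis isoforms, Cox8c was listed at 0 in all 3 libraries and Cox6b2 at 0.166, 0 and 0.165. Without counts an exact 0 need not be a low level, although each row carried the status OK. Ndufs6, a subunit of complex I in all tissues, was listed at 0 as well, so the zeros of Cox6a2 and Cox8c give no level. Cox4i1 and Cox4i2 did not overlap, but a sign-flip test over 3 libraries cannot reach a small p, so none was made. Partners of Cox6b2 and Cox7a2 such as Cox6b1 and Cox7a1 were not analysed here.

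Markers of striated muscle and of testis germ cells were listed at or near 0 in the same libraries, with the same limit on exact zeros. Smooth muscle markers summed to more, and no lung marker was listed. Of 10 striated muscle markers 7 were listed at 0, Ckm and Mb among them, and the 10 summed to between 0.304 and 0.564 FPKM. Of 6 testis germ cell markers 5 were listed at 0, with sums of at most 0.05. Of 4 brown adipocyte markers, Ucp1 and Elovl3 were listed at 0 and Dio2 in all but rat 2, while Cidea, a lipid droplet protein, stood between 12.8 and 15.1 FPKM. The 8 smooth muscle or pericyte markers with a row, from cells in which Cox4i2 can be made, summed to 20.3, 20.1 and 35.6 FPKM. Tagln, Myh11, Des, Cnn1, Notch3 and Cspg4 were highest in rat 3, where Cox4i2 was lowest. Rgs5 and Pdgfrb were highest in rat 1, as Cox4i2 was, and Rgs5 was also lowest in rat 3. The sum therefore does not stand for each marker, and which of these cells held Cox4i2 was not tested. Of cells that liver does hold, 5 macrophage markers summed to between 97.3 and 135 FPKM and 4 sinusoidal endothelial markers to between 49.1 and 56.8. Hbb, a haemoglobin chain that marks red cells, was lowest in rat 1, at 54.4 FPKM against 357 and 348. Their part in the levels was not tested. In bulk liver, fewer cells of a type and less RNA per cell cannot be told apart.

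**Figure D2:**
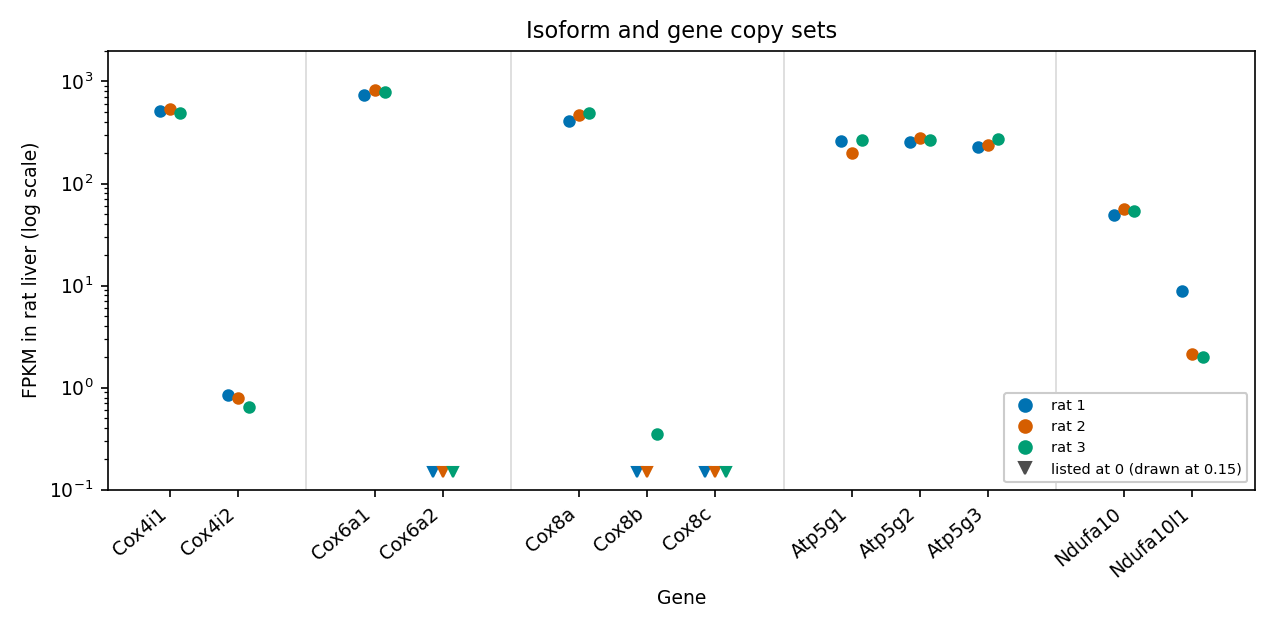
FPKM (log axis) of isoform and gene copy sets in 3 rat libraries (rat 1 blue, rat 2 orange, rat 3 green), with triangles for values listed at 0. Cox4i1 lies between 496 and 533 FPKM and Cox4i2 below 1, the 3 Atp5g genes lie together between 199 and 280, and Ndufa10l1 is high in rat 1 alone.

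ATP synthase has a catalytic F1 head, a ring of c subunits in the membrane, and a stalk that holds the head. Atp5b, the catalytic beta subunit, was the highest of all 86 rows at 831, 911 and 983 FPKM. Atp5a1, the alpha subunit that alternates with beta in the head in equal number, stood at 382, 400 and 415. The ratio of Atp5b to Atp5a1 was 2.18, 2.28 and 2.37, a mean of 2.27 ± 0.0956 (SD, n = 3). The gamma and delta subunits Atp5c1 and Atp5d, which form the central rotor shaft, were lower at 170 ± 7.87 and 130 ± 8.24 FPKM.

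The c subunit, which carries the protons, is encoded by a set of genes whose mature proteins are the same. Atp5g1 stood at 263, 199 and 268 FPKM, Atp5g2 at 255, 280 and 268, and Atp5g3 at 227, 236 and 271. The ranges of the 3 genes overlapped, and each held about the same share of their sum: 32.1% ± 3.84, 35.5% ± 3.12 and 32.3% ± 1.66 (SD, n = 3). Summed, they reached 746, 715 and 807 FPKM. RefSeq names pseudogenes after Atp5g1 (2) and Atp5g2 (4), so the split between them is uncertain. Of the other subunits, Atp5i (subunit e, now Atp5me), which helps synthase dimers form, was at 681, 888 and 787 FPKM and Atp5h (subunit d) at 337 ± 18.1. The membrane and stalk subunits Atp5j2, Atp5j, Atp5l and Atp5f1 lay closer together, with means from 136 to 208. Atp5o, the stalk protein that confers oligomycin sensitivity, was the lowest of complex V at 64.1, 66.0 and 68.3. Atp5i was 11.9 ± 1.45 times as high as Atp5o (SD, n = 3), but 6.30 times at the midpoint of the bounds deposited with each value, which are described further on.

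Of the 7 assembly factors 0 reached 100 FPKM, a level reached by 2.94% of all rat rows. Ndufaf1, Ndufaf3 and Ndufaf4, which build complex I and are not part of it, stood at 4.46 ± 0.135, 6.71 ± 0.777 and 5.86 ± 0.398 FPKM (SD, n = 3), and Ndufaf2 at 21.0 ± 1.04. Cox7a2l, a factor of respiratory supercomplexes, was highest of the group at 35.2, 33.9 and 34.3. Atp5sl (now Dmac2), an assembly factor of complex I despite its name, was at 13.1 ± 1.63, and its relative Atp5s (Dmac2l) at 0.714, 1.07 and 0.675. The median over all 7, Atp5s included, was 6.71 FPKM, below that of each complex and above the 0.448 of all rat rows.

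Promoter sequence was set beside the levels, as a feature that the choice of genes did not use. RefSeq promoters (GRCr8, 250 bases before to 50 after the start) were found for 67 of the 76 subunit genes. Motifs were searched on both strands: an NRF1-type site (GCGC, any 2 bases and GCGC), an ETS-type site CCGGAAG (bound by the GABP factor), a YY1-type site AAGATGGC, the hypoxia response core ACGTG and a TATA-type box TATAAA. No match of a motif overlapped another motif in the 5 promoters printed. The ETS-type letters were in 29.9% of the 67 promoters, against 10.7% of 21851 promoters of protein-coding genes. The NRF1-type letters were in 22.4% against 7.46% and the YY1-type letters in 22.4% against 3.67%. For ACGTG the shares were 28.4% and 19.8%, and for TATAAA 7.46% and 13.0%. These shares are descriptions, and a match is not evidence that a factor binds. The motifs were chosen with earlier results known, and the background promoters were not limited to genes of like level in liver. The promoters of Cox8a and Cox8b are printed because the genes are isoform partners of very unlike level, that of Cox6a2 as a further muscle isoform, that of Cox4i1 because it adjoins Cox4nb, and that of Atp5i because it holds 4 of the motifs. Capitals mark motif matches on either strand. The windows are chr14:1464610-1464909 (plus strand) for Atp5i, chr19:65630133-65630432 (plus) for Cox4i1, chr1:213833574-213833873 (minus) for Cox8a, chr1:205408224-205408523 (minus) for Cox8b and chr1:192219667-192219966 (minus) for Cox6a2.
Atp5i: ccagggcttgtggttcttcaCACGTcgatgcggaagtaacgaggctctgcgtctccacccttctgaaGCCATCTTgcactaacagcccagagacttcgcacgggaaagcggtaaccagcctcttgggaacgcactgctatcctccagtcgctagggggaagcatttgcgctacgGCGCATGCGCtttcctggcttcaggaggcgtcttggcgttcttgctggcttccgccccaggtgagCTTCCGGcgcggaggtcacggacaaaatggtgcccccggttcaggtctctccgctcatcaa
Cox4i1: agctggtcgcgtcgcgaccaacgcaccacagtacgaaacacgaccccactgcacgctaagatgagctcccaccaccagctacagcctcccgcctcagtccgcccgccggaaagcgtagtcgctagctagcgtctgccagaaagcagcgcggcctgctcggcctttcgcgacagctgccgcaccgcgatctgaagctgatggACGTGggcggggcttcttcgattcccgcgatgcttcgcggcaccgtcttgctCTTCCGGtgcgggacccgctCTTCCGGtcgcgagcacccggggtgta
Cox8a: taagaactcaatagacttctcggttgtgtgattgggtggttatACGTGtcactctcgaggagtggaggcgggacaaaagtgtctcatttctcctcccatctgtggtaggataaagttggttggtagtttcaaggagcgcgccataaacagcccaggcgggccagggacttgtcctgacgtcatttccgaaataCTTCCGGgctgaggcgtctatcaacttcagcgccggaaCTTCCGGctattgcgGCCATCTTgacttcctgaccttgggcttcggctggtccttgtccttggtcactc
Cox8b: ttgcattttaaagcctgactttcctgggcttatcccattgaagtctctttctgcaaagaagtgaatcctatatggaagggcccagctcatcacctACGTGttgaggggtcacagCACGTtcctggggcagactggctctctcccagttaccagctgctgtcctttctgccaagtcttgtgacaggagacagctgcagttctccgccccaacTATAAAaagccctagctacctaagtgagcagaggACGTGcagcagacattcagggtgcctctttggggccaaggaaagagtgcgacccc
Cox6a2: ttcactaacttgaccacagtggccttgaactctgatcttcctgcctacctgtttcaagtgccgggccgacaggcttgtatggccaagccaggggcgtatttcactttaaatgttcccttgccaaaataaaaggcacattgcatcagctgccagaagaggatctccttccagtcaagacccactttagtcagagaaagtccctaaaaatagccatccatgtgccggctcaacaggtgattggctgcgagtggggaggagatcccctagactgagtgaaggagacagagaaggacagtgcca
The Cox8a window held ETS-type letters at bases 194 and 232, YY1-type letters at base 247 and the hypoxia response core at base 44, counted from its 5′ end. The Cox8b window held the hypoxia response core as well, at bases 96, 115 and 246, and TATA-type letters at base 212, with no ETS-type or YY1-type letters. The Cox6a2 window held none of the 5 motifs.

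Members often sat beside another gene. Of 85 rows on assembled chromosomes, 38 (44.7%) had another row overlapping or within 1000 bp, against 21.8% of all 21718 such rows. The rows of Cox4i1 and Cox4nb on chromosome 19 are 147 bp apart (51023959 to 51030200 and 51013950 to 51023812). Their RefSeq promoter windows lie on opposite strands and share 247 bases. Yet Cox4nb was at 11.2, 11.1 and 12.8 FPKM, and Cox4i1 was 44.0 ± 4.76 times as high (SD, n = 3). Sdhd lay 145 bp from Timm8b, a chaperone of mitochondrial protein import, which was at 73.0, 67.7 and 65.6 FPKM. Atp5j, a stalk subunit at 196, 202 and 212, lay 162 bp from Gabpa, the DNA-binding subunit of GABP, at 2.78, 3.38 and 3.31. Overlapping rows numbered 8 (9.41%, against 9.47% of all rows), and reads of such pairs cannot be told apart where the counting did not use strand. Among the 8 are Atp5h, Cox7a2, Cox7b and Cox7c.

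The members varied little between the rat libraries. The ratio of the highest to the lowest of the 3 libraries had a median of 1.13 over the 77 rows at 1 FPKM or more, against 1.24 over all 9994 such rat rows with 3 values. A ratio of at least 1.5 was reached by 1 of the 77, against 18.9% of all rows. At a mean of at least 10 FPKM it was reached by 0 of 73 members, against 12.8% of 3908 rows. The exception was Ndufa10l1, a row of 1434 bp named as a copy of the complex I subunit Ndufa10, at 8.88, 2.14 and 2.01 FPKM. It was 4.43 times as high in rat 1 as in rat 3, while Ndufa10 itself was at 48.8, 56.5 and 53.5, lowest in rat 1. Without rat 1, no member reached the ratio of 1.5.

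After Ndufa10l1 the widest spreads belonged to Ndufa6 (117, 148 and 109 FPKM, ratio 1.36), Atp5g1 (1.34, lowest in rat 2) and Ndufa1 (54.2, 60.2 and 45.0, ratio 1.34). Ndufa3 (53.4, 65.8 and 71.3) had a ratio of 1.34 and Atp5i one of 1.30. Ndufa13, Atp5sl, Ndufa12 and Ndufa8 followed, from 1.28 to 1.27, each lowest in rat 1. Rat 1 was low for most members: 18 of 77 lay above their own mean log2 level in rat 1, 51 in rat 2 and 53 in rat 3. Over all rows the shares above their own mean were 32.1%, 64.8% and 52.2%, so the low values of rat 1 were shared with rows in general. With the libraries scaled by the median ratio over all rat rows, 36, 30 and 46 of the 77 members lay above their mean, against 50.8%, 51.4% and 49.1% of all rows.

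**Figure D3:**
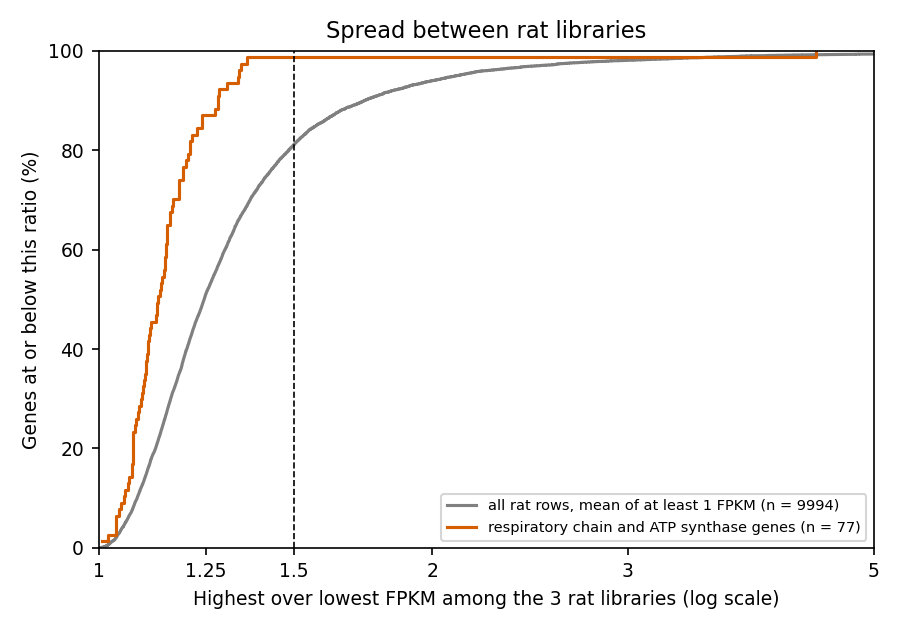
Share of genes (y axis, percent) whose highest over lowest FPKM among 3 rat libraries is at or below the value on the log x axis, for 77 respiratory chain and ATP synthase genes (orange) and 9994 rat rows (grey), all with a mean FPKM of 1 or more. The dashed line marks 1.5, past which lie 1 of the 77 genes and 18.9% of all rows.

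The deposited tables give a lower and an upper bound with each FPKM, and for most members the FPKM lay outside them. It exceeded its own upper bound for 64 of 80 values above 0 in rat 1, 63 of 79 in rat 2 and 65 of 81 in rat 3, or 80.0%, 79.7% and 80.2%. Over all rat values above 0 the shares were 10.3%, 10.3% and 10.9%, and over all values of at least 10 FPKM 39.5%, 37.0% and 41.3%. For the 77 members at 1 FPKM or more, the value was a median of 1.24 times the midpoint of its bounds, with a highest ratio of 2.38 for Atp5i, whose midpoint was 330 FPKM. Ndufa3 followed at 1.82. In 12 members, among them Cox7a2, Ndufv3 and Ndufa2, the FPKM lay within its bounds in all 3 libraries. A level read from the midpoint differs: Atp5i moves from rank 3 to rank 6 of the 77 and Atp5a1 from rank 7 to rank 4. Atp5b stays first, and its ratio to Atp5a1 remains 2.27. Among members at 1 FPKM or more, the order of the 5 complexes by median is the same (IV 176, V 159, II 114, I 60.0 and III 59.0 FPKM). Which of the deposited columns is nearer to the true level was not tested. For Cox7b the midpoint was 98.3, 146 and 82.3 FPKM while the FPKM was 151, 146 and 128, so the library that was highest depended on the column.

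**Figure D4:**
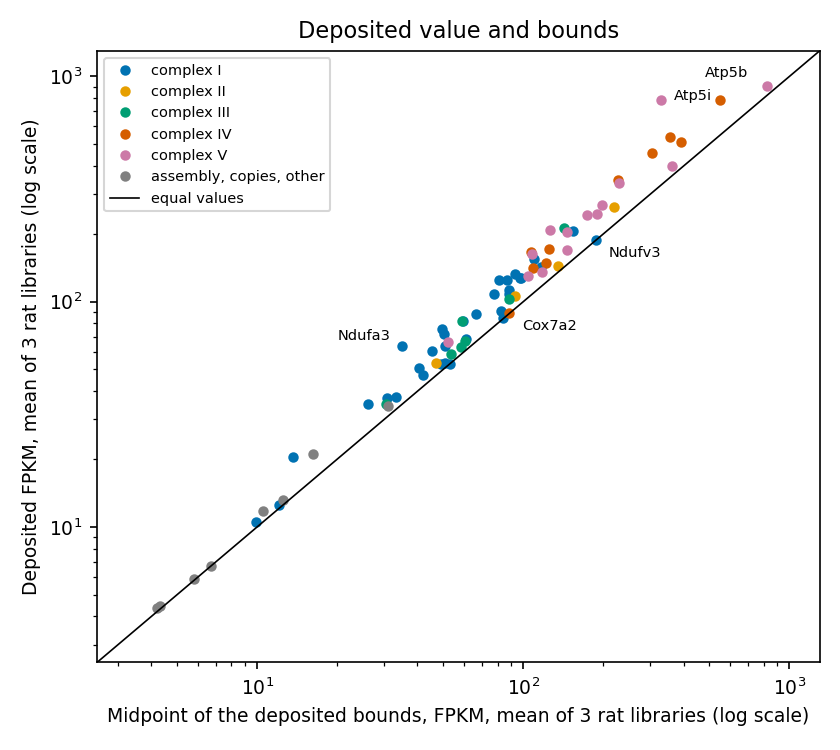
Mean deposited FPKM of 3 rat libraries (y, log axis) against the mean midpoint of the deposited bounds (x, log axis) for 77 members, coloured by complex, with the line of equal values. Most points lie above the line, Atp5i and Ndufa3 farthest, while Cox7a2 and Ndufv3 lie on it.

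Other genes of the pathway, from lists chosen by function, were measured in rat only, since none had a row in the naked mole rat tables as used here. Over all rat rows, 44.3% reached a mean of 1 FPKM and 2.94% reached 100. Of 17 electron carriers and other inputs with a row, 16 reached a mean of 1 FPKM and 5 reached 100, among them the complex III subunit Cyc1. Etfb and Etfa, the electron transfer flavoprotein of fatty acid oxidation, stood at 358 ± 25.5 and 176 ± 20.2 FPKM (SD, n = 3), and Etfdh, which hands those electrons to ubiquinone, at 121 ± 17.6. Cycs, cytochrome c, was at 136, 151 and 163. Of 19 further assembly factors with a row, 18 reached 1 FPKM and 0 reached 100; Cox17, the copper chaperone of complex IV, was highest at 101, 82.1 and 102, and Surf1, mutated in Leigh syndrome, stood at 15.4 ± 1.20.

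Of 18 genes listed as regulators, 17 reached 1 FPKM and 1 reached 100, against 44.3% and 2.94% of all rat rows. The 1 gene was Usmg5, at 138, 148 and 150 FPKM, a protein of ATP synthase rather than a regulator. The list, with Lonp1 at 0 included, had a median of 11.2 FPKM, against 0.448 over all rat rows. Its activators of nuclear subunit genes ranged widely: Nrf1 stood at 2.44, 1.85 and 2.17 FPKM and the coactivator Ppargc1a at 0.837, 1.29 and 1.17, while Yy1 was at 18.2 ± 1.64 and the nuclear receptor Esrra at 15.9 ± 2.38 (SD, n = 3), the last pair named once their values were known. Tfam, which packages and transcribes mitochondrial DNA, was at 19.7 ± 1.56 (SD, n = 3) and Atpif1, the inhibitor of ATP synthase, at 29.5, 38.2 and 32.2. Higd1a, a small protein of complex IV that low oxygen can induce, was at 35.1, 42.3 and 23.5, lowest in rat 3. Bnip3, a mitophagy receptor and known target of hypoxia-inducible factors, and picked once its values were known, read 64.6, 68.8 and 23.4, also lowest in rat 3. Lonp1, a mitochondrial protease that degrades Cox4i1, was listed at 0 in each library, on the same unplaced sequence as Ndufa11. Of these 3 lists, 3 of 16, 2 of 18 and 3 of 17 genes at 1 FPKM or more reached a ratio of 1.5 between libraries, against the 18.9% of all rows.

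Of the 2 subunits held by both tables, COX8A was higher in rat, and COX7A2 had no value above 0 in naked mole rat. Both belong to complex IV: COX8A, a small membrane subunit, and COX7A2, the isoform of liver and most tissues. COX8A stood at 14.8, 9.59 and 17.1 FPKM in naked mole rat 1, 2 and 3, against 408, 474 and 486 in rat. Each naked mole rat library listed COX7A2 at 0, while rat 1, rat 2 and rat 3 had 94.3, 86.4 and 85.2. The COX8A values of the species did not overlap.

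The test scaled each library by the median ratio over the shared symbols above 0 in all libraries (243 of 388) and compared log2(scaled FPKM + 1) with limma over 288 symbols. Calls needed a Benjamini-Hochberg adjusted p below 0.05 together with a log2 change of 1 or more. After scaling, COX8A averaged 423 ± 26.2 FPKM in rat and 14.6 ± 3.58 in naked mole rat (SD, n = 3 each). The log2 difference was -4.79 with a standard error of 0.19, or 27.6-fold higher in rat on this scale (limma adjusted p = 1.72e-07). For COX7A2 neither a fold nor a p is given: without counts a value of 0 need not be a low level, and the gene passed the filter through rat alone. Calls of this kind were common: 118 of the 288 symbols, or 41.0%, were called higher in rat, and 94, or 32.6%, higher in naked mole rat (73.6% in either direction). With each library scaled to 1000000 over the shared symbols, 108 were called higher in rat and 169 higher in naked mole rat, and the median log2 difference moved from -0.40 to 0.77. On that scale COX8A differed by -3.89 and was again called higher in rat.

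The rows compared are not alike in extent. The naked mole rat COX8A row, on scaffold477 from 8941 to 70511, spanned 61570 bp, 26.5 times the 2322 bp of the rat row on chromosome 1 (209886140 to 209888462). It shared 59778 bp with the row of ODF3, a sperm flagellar protein, which stood at 40.4, 38.4 and 35.3 FPKM, above COX8A in each library. The COX7A2 row, on scaffold138551 from 1031 to 2237, spanned 1206 bp, 0.294 times the 4099 bp in rat on chromosome 8 (84813291 to 84817390). Neither gene had rows of comparable span (0.5 to 2 times), so a species difference and a difference in annotation or row extent cannot be told apart.

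**Figure D5:**
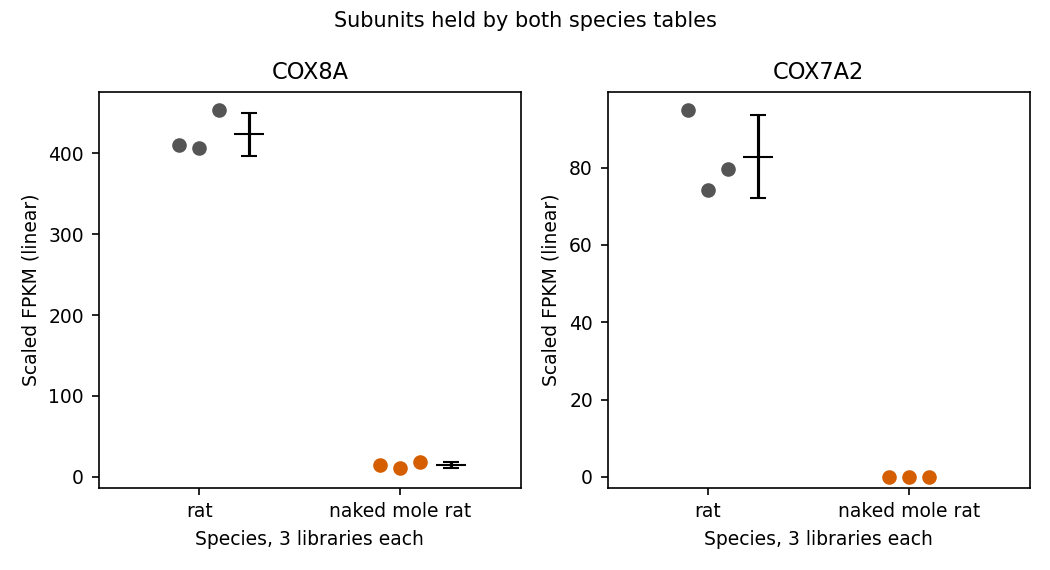
Scaled FPKM (linear axes) of COX8A and COX7A2 in 3 rat and 3 naked mole rat libraries; points are libraries and bars the mean ± SD, with no bar where all values are 0. COX8A averages 423 in rat and 14.6 in naked mole rat without overlap, and COX7A2 is listed at 0 in naked mole rat.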

How the data were processed

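Liver RNA libraries of rat (3) and naked mole rat (3) were compared, grouped by their titles. Values are FPKM as deposited by the authors, in tables with the columns of a Cufflinks gene table, per the file headers. Tools named in the submitters' processing notes, without their roles, are Picard 1.137, Cufflinks 2.1.1, TopHat2 2.0.9 and Bowtie2 2.1.0. Coordinates are as deposited, and their builds and annotations are not given in the sources. Values with the status HIDATA were treated as missing, which touched no member.

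Means and SD over 3 libraries were taken from FPKM without scaling. Species were joined on symbols, ignoring case, after summing rows of a symbol. The test was limma 3.58.1 (R 4.3.3), applied to log2(scaled FPKM + 1) of symbols whose scaled FPKM reached 1 in 3 libraries or more; it used an intensity trend, with p-values adjusted by Benjamini-Hochberg. Fold differences on this scale understate those of low genes. The limma step was tested on simulated data, with shifts balanced in direction and without the scaling step. That test therefore does not cover the scaling or the unequal calls seen here. Alternatives were scaling, pseudocount, filter, trend, treatment of repeated symbols, row span, thresholds, a replicate block, leaving out each library, and the midpoint of the bounds, the last chosen after seeing the data.

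The members, lists and promoter motifs were chosen with earlier results of these data known. The text names the members held by both species, the 3 highest per complex, core subunits, isoform sets, members listed at 0, the 10 widest spreads between rat libraries and listed pathway genes; others were chosen after their values were seen. The result of 1 member is not reported here, although the counts and medians include it. Promoters and current symbols come from RefSeq (GRCr8), in which each of the 86 names was matched, by symbol or synonym.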

Additional observations from a re-analysis of the deposited data

How the results depend on the processing

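The call of COX8A as higher in rat held under the alternatives that could be run: 3 other scalings, a pseudocount of 0.1, no filter, no trend, the highest row of a symbol, adjusted p alone, and each library left out, with a filter that then asked for 2 libraries. The log2 difference of COX8A ran from -4.98 (FPKM as deposited) to -3.89 (scaled to 1000000), and from -4.94 to -4.60 with a library left out. COX7A2 was compared with 0 throughout, so its call was fixed in advance and shows no stability. With a replicate block COX8A was again called, with a limma adjusted p of 1.49e-06. The block left the counts at 118 and 94. Deviations of same-numbered libraries had r of -0.04, -0.09 and -0.04 over 288 symbols. Rat 1 with naked mole rat 2, rat 2 with 3 and rat 3 with 1 had 0.12, 0.11 and 0.11, and the remaining pairings ran from -0.07 to -0.05. Deviations from a mean of 3 libraries depend on each other, so these values cannot decide whether replicate numbers pair the species. The fit on rows of comparable span held neither member. Over all symbols the count higher in naked mole rat was 94, against 169 after scaling to 1000000, where more symbols (358) passed the filter.

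In rat, the median member level of 85.9 FPKM was 160 as a share of the total scaled to 1000000 and 72.1 at the midpoint of the bounds. The ratio of Cox4i1 to Cox4i2 was 534 at that midpoint, against 682. The count of members reaching a ratio of 1.5 between rat libraries was 1, against 0 at a mean of at least 10 FPKM, 2 at the midpoint of the bounds (Ndufa10l1 and Cox7b), and 0 to 1 with a library left out. Depth is unknown, so the precision of values under 1 FPKM was not tested, but their deposited bounds were wide. For Cox4i2 they ran from 0.284 to 1.35 FPKM in rat 1, 0.298 to 1.27 in rat 2 and 0.209 to 1.04 in rat 3. The SD of the ratio of Cox4i1 to Cox4i2 does not include this width. The bounds of Cox8b in rat 3 and of Cox6b2 in rat 1 began at 0 and ended at 0.625 and 0.318.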
